A study of Mus musculus with 16 samples.

Results

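Iron enters and leaves liver cells through a small set of proteins, and 10 of their genes are described here by name: the hepcidin genes Hamp and Hamp2, the transferrin gene Trf, the transferrin receptors Tfr2 and Tfrc, the metalloreductases Steap2, Steap3 and Steap4, the iron exporter Slc40a1 and the ferritin heavy chain Fth1. They were taken as a list of names, chosen with earlier results of these data known. All 10 were found among the 15119 genes of the deposited counts. All 10 were also among the 14434 genes with enough counts to be tested.

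Iron travels in blood bound to transferrin, which hepatocytes secrete. A cell takes up loaded transferrin through a transferrin receptor, and in the acid endosome a Steap protein reduces the ferric iron to the ferrous form that transporters can move. Iron that is not used is stored in ferritin, and surplus leaves the cell through ferroportin, the product of Slc40a1. The liver also sets the iron level of the whole body: hepatocytes secrete hepcidin, which makes cells take in and destroy their ferroportin, and they adjust hepcidin to bone morphogenetic protein (BMP) signals, which report iron, and to interleukin 6, which reports inflammation.

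Poly(A) RNA was sequenced from livers of female mice that had eaten chow up to the age of 9 months. For a further 12 weeks they stayed on chow or were moved to TD. 88137, a diet rich in fat (HFD). In each diet group, livers of wild-type (WT) mice were set beside livers of mice whose hepatocytes lacked Arglu1, a transcriptional coregulator that also acts in splicing (LKO, the labels' name). There were 4 libraries in each of the 4 groups, WT on chow, LKO on chow, WT on HFD and LKO on HFD. The labels name neither the Cre driver nor the deleted exons, and they do not say that each library comes from a different animal, so every SD and p-value here measures variation among libraries, which may be technical in part.

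Libraries held between 19142612 and 25120565 estimated counts. All levels are in CPM, counts scaled to a common library size. Arglu1 had 41.2 ± 2.62 CPM in WT and 14.7 ± 1.56 in LKO on chow, and 42.2 ± 1.70 and 15.5 ± 1.53 on HFD (SD, n = 4 each), with no overlap. The hepatocyte markers Alb, Apoa1, Ttr and 7 others were all measured, and summed to between 70640 and 129500 CPM per library. LKO chow libraries 3 and 4 stood apart from LKO chow libraries 1 and 2 on the second principal component of all genes. They had 38.1 and 34.7 there, against -10.7 and -11.1. For some of the genes described by name, values are therefore also given without LKO chow libraries 3 and 4. Values of the other listed genes are given with all libraries only.

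Loss of Arglu1 was accompanied by lower transcripts of 4 of the 10 genes, Steap2, Hamp2, Trf and Tfr2, on chow and on HFD alike. The other 6 genes passed the test in neither comparison, and no gene of the 10 was called higher in LKO. A gene was called at an adjusted p below 0.05 by edgeR's quasi-likelihood test over all 14434 genes. On chow 24.7% of all genes were called, 12.9% higher and 11.8% lower in LKO. On HFD 17.9% were called, 10.3% higher and 7.57% lower. The 10 genes had a median log2 fold change of -0.31 on chow and -0.22 on HFD, beside 0.02 and -0.01 over all genes tested. For each of the 4 called genes the LKO and WT libraries did not overlap on either diet, which also held for 21.4% of all genes on chow and 27.8% on HFD.

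**Figure D1:**
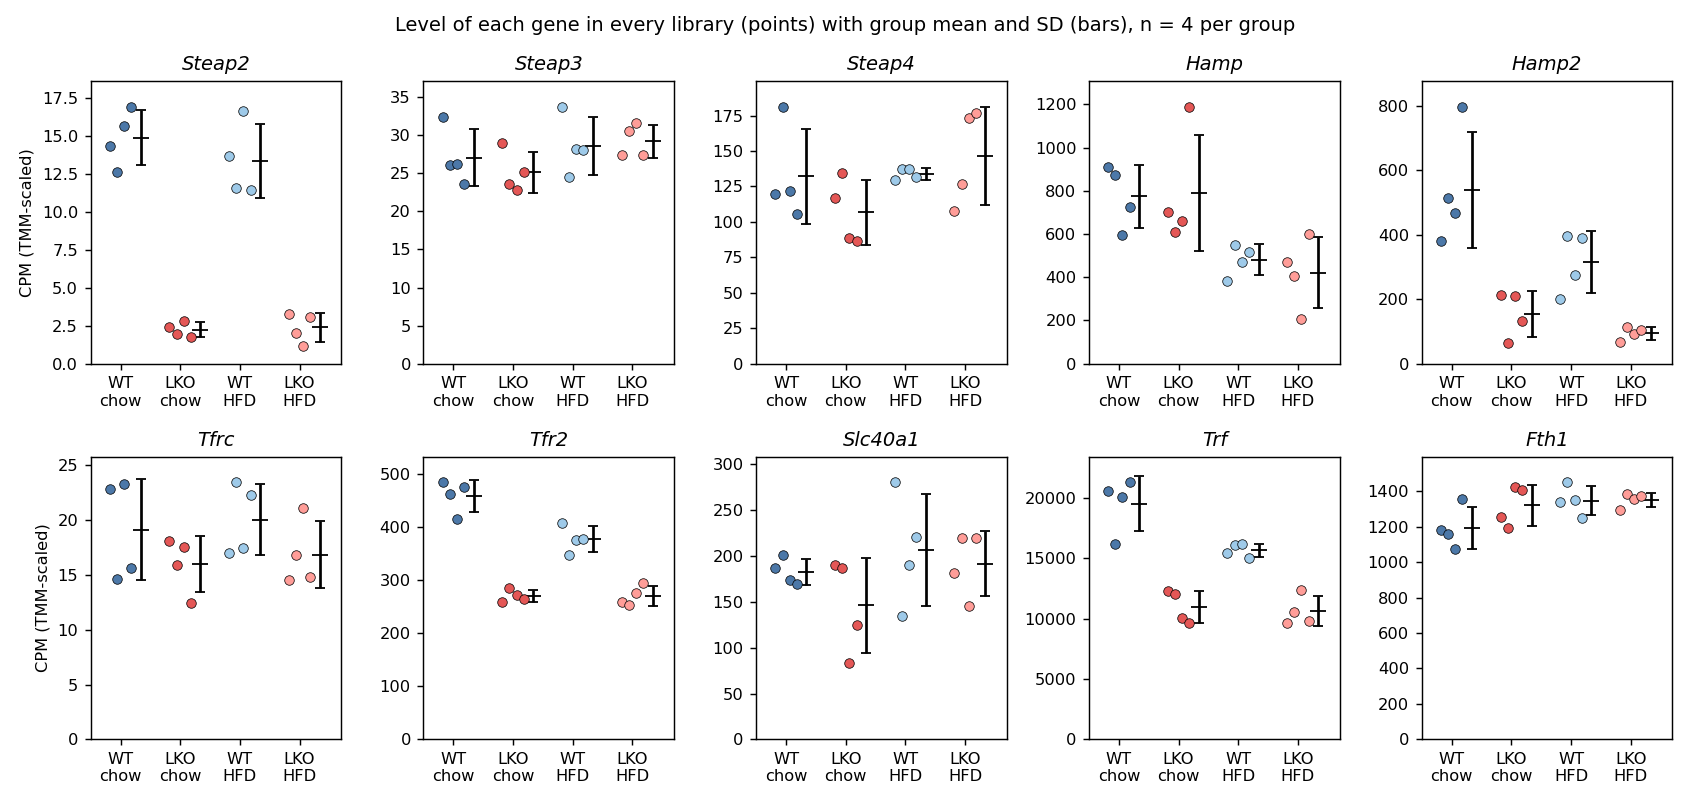
Level of each of the 10 genes in CPM (vertical axes from 0) in every library (points), by group, with the group mean and SD (bars, n = 4). Steap2, Hamp2, Tfr2 and Trf are lower in every LKO library than in every WT library on the same diet, while the groups of the other 6 genes overlap between genotypes.

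The mouse has a pair of hepcidin genes. Hamp makes the hormone that controls ferroportin, and Hamp2 makes a close relative that is not known to control it. Both lie on the minus strand of chromosome 7 (GRCm38), Hamp at chr7:30942368-30944032 and Hamp2 at chr7:30922372-30924681. They are close copies: 227 of 247 aligned bases upstream of their start sites were identical (91.9%). An 81-base stretch of both promoters is shown because it holds a pair of known control motifs of hepcidin. Capitals mark GGCGCC, the core of the BMP-responsive element, and TTCTTGGAA, the site bound by STAT3 below the interleukin 6 receptor. The stretch runs from -139 to -59 relative to the start site of Hamp (chr7:30944088-30944168, minus strand) and from -136 to -56 relative to that of Hamp2 (chr7:30924237-30924317, minus strand), both from RefSeq on GRCm38.p6. The GENCODE span of Hamp2 given above reaches further upstream than the RefSeq start site, so this stretch lies inside that span, where it holds 0 GENCODE exons:
Hamp: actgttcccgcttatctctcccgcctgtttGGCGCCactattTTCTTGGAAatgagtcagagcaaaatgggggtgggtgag
Hamp2: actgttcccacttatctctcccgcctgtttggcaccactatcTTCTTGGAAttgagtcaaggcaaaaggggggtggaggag

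The stretches share 72 of 81 bases. At the place of the BMP core the Hamp2 promoter differs by G34A, counted from 1 at the 5′ end of the stretch with the base of Hamp first, so that GGCGCC reads GGCACC in Hamp2. The STAT3 site is the same in both. Both motifs were searched on both strands, GGCGCC being its own reverse complement and TTCTTGGAA reading TTCCAAGAA on the other strand. Over all 32851 RefSeq promoter windows of 300 bases, 11.9% held GGCGCC and 0.417% held TTCTTGGAA. Promoter windows were found for 8 of the 10 genes, and besides Hamp only Tfrc held GGCGCC, in 1 of its 2 windows. A match is a description of the letters and not of binding.

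The coding ends show how far reads can tell the transcripts apart. The mature hormone comes from the last 25 codons, given here with the stop codon, and capitals mark the 14 of 78 bases at which the genes differ:
Hamp: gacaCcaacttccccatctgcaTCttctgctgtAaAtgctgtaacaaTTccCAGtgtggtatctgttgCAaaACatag
Hamp2: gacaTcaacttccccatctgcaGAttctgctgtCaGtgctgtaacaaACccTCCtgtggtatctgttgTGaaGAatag

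Over the whole coding sequence 236 of 252 bases were identical (93.7%), and over the transcripts 388 of 410 (94.6%). The longest stretch without a difference was 87 bases, shorter than the paired reads of 150 bases. The counting tool is not given in the sources used here, so how reads common to both genes were divided is unknown, and the split of counts between Hamp and Hamp2 is uncertain to that degree. Hamp2 also shares 89 of its 583 exon bases with Gm44662 on the opposite strand, and the strand setting of the counting is not given either.

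Hamp2 had 381, 514, 468 and 798 CPM in the 4 WT libraries on chow and 213, 64.7, 211 and 133 CPM in the LKO libraries. On HFD it had 200, 398, 277 and 392 CPM in WT and 67.2, 115, 93.1 and 103 CPM in LKO. Every LKO library lay below every WT library on the same diet, though the WT libraries spread widely. Hamp2 was 3.48-fold lower in LKO on chow (log2 fold change -1.80, SE 0.352, edgeR adjusted p = 0.00191) and 3.35-fold lower on HFD (-1.74, SE 0.352, edgeR adjusted p = 0.003). Without LKO chow libraries 3 and 4 the fall on chow was -1.96 (edgeR adjusted p = 0.0182).

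Hamp did not follow. It had 909, 875, 594 and 723 CPM in WT and 703, 610, 662 and 1189 CPM in LKO on chow, with LKO library 4 the highest of all 16. On HFD the values were 384, 548, 470 and 519 CPM in WT and 472, 405, 209 and 602 CPM in LKO. The genotypes overlapped on both diets. The log2 fold change of Hamp was 0.03 on chow (95% interval -0.54 to 0.60, edgeR adjusted p = 0.957) and -0.19 on HFD (-0.76 to 0.39, edgeR adjusted p = 0.704). Without LKO chow library 4 the chow value was -0.24.

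Hamp2 thus made up a smaller share of the hepcidin count in LKO livers. The share was 40.8% ± 9.80 in WT and 16.8% ± 8.02 in LKO on chow, and 39.1% ± 4.17 and 20.0% ± 8.32 on HFD (SD, n = 4 each). On both diets the lowest WT share, 29.5% on chow and 34.2% on HFD, lay above the highest LKO share, 24.2% and 30.9%. The log2 ratio of Hamp2 to Hamp differed between genotypes by -1.89 on chow and by -1.44 on HFD. In a 2-sided exact permutation test of 4 against 4 libraries both had p = 0.0286, the smallest that this design can give, and p = 0.172 after Benjamini-Hochberg adjustment over 12 tests of ratios, so neither passed the correction. Adding up the counts of the 2 genes removes any division of shared reads between them, but would not restore reads left out of both. For this sum LKO livers differed from WT by -0.48 on the log2 scale on chow (SE 0.235, edgeR adjusted p = 0.159) and by -0.63 on HFD (SE 0.235, edgeR adjusted p = 0.078), and neither was called.

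**Figure D2:**
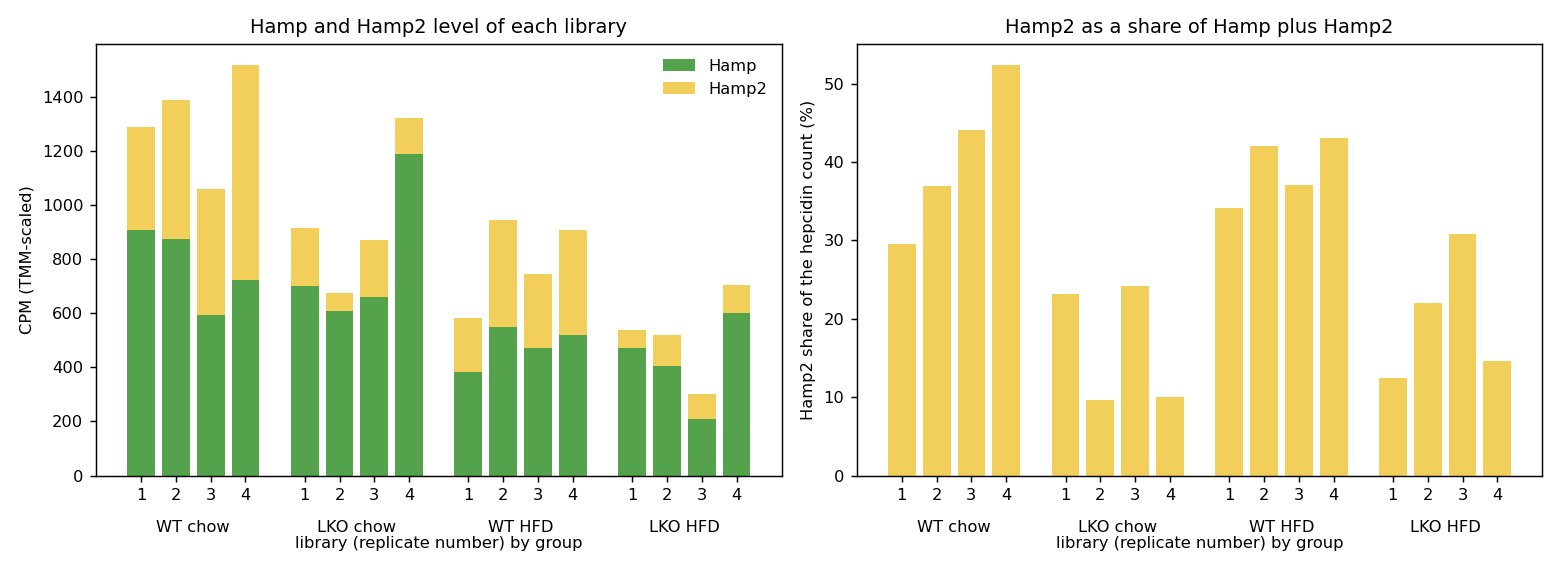
Left, level of Hamp (green) and Hamp2 (yellow) stacked for each library, in CPM from 0; right, Hamp2 as a percentage of the Hamp and Hamp2 counts of the library. The share is below 31% in all 8 LKO libraries, while on each diet every WT library has a higher share than every LKO library.

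Transferrin receptor 2, the product of Tfr2, is made mostly by hepatocytes, where it senses loaded transferrin and is needed for full hepcidin output. Tfr2 (chr5:137569840-137587481, GRCm38) had 484, 461, 415 and 474 CPM in WT and 257.8, 284.5, 272.5 and 264.3 CPM in LKO on chow. On HFD it had 408, 347, 376 and 378 CPM in WT and 258, 253, 276 and 295 CPM in LKO. The 8 LKO libraries kept within a narrow band on both diets, and every WT library lay above it. Tfr2 fell in LKO on chow (log2 fold change -0.77, SE 0.0833, edgeR adjusted p = 3.98e-06) and on HFD (-0.48, SE 0.083, edgeR adjusted p = 0.000534). The difference between these effects, 0.29 (95% interval 0.04 to 0.53), had an unadjusted p of 0.0256 and an edgeR adjusted p of 0.514, so a difference between diets was not called.

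Transferrin is among the most abundant liver transcripts, and Trf ranked between 3 and 5 of all genes by count in every library. Trf (chr9:103204001-103230444, GRCm38) had 20550, 16200, 20110 and 21280 CPM in WT and 12250, 12010, 10060 and 9677 CPM in LKO on chow. On HFD the values were 15410, 16080, 16160 and 15040 CPM in WT and 9650, 10550, 12370 and 9835 CPM in LKO. All WT libraries were above all LKO libraries, whichever the diet. Trf fell in LKO on chow (log2 fold change -0.83, SE 0.118, edgeR adjusted p = 6.8e-05) and on HFD (-0.56, SE 0.117, edgeR adjusted p = 0.00251). Its part of the library's whole count was 1.85% ± 0.154 in WT and 1.12% ± 0.150 in LKO on chow, and 1.59% ± 0.0559 and 1.08% ± 0.123 on HFD (SD, n = 4 each). The chow fold change was -0.69 with LKO chow libraries 3 and 4 left out and -0.99 with libraries 1 and 2 left out, and was called in both cases. The annotated gene Gm20425 covers 2108 of the 3320 exon bases of Trf on the same strand, so reads of these genes may not have been told apart.

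Transferrin receptor 1, the product of Tfrc, brings transferrin into nearly all cell types, and its transcript is stabilised when a cell is short of iron. Tfrc (chr16:32608920-32632794, GRCm38) ranged from 14.6 to 23.3 CPM in WT and from 12.5 to 18.1 CPM in LKO on chow, and from 17.0 to 23.4 and from 14.5 to 21.1 CPM on HFD. The groups overlapped, with log2 fold changes of -0.25 on both diets (95% intervals -0.62 to 0.11 and -0.62 to 0.12, edgeR adjusted p = 0.325 and 0.358). Changes of up to about the size seen for Tfr2 on HFD are inside these intervals.

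Fth1 encodes the ferritin heavy chain, which oxidises iron for storage, and its translation is held back by iron regulatory proteins when iron is scarce. Fth1 (chr19:9980598-9985098, GRCm38) had between 1071 and 1358 CPM in WT and between 1191 and 1424 CPM in LKO on chow. On HFD it had between 1246 and 1449 CPM in WT and between 1294 and 1381 CPM in LKO. The genotypes overlapped on both diets, with log2 fold changes of 0.15 on chow (95% interval -0.05 to 0.34, edgeR adjusted p = 0.286) and 0.01 on HFD (-0.19 to 0.20, edgeR adjusted p = 0.978). Its processed pseudogenes may share reads with it. The log2 ratio of Tfrc to Fth1, an uptake gene over a storage gene, differed between genotypes by -0.39 on chow and -0.26 on HFD (exact permutation p = 0.257 and 0.171, Benjamini-Hochberg adjusted 0.514 and 0.41).

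The Steap genes encode membrane reductases of iron and copper. Steap3 is the main ferric reductase of maturing red cells, Steap4 is known from fat tissue, liver and inflammation, and Steap2 can reduce both metals. Steap2 (chr5:5664829-5694578, GRCm38) had 14.4, 12.7, 15.7 and 16.95 CPM in WT and 2.42, 1.97, 2.82 and 1.73 CPM in LKO on chow. On HFD it had 13.7, 11.6, 16.7 and 11.4 CPM in WT and 3.27, 2.03, 1.19 and 3.09 CPM in LKO. The lowest WT library was more than 3 times the highest LKO library. Steap2 was 6.64-fold lower in LKO on chow (log2 fold change -2.73, SE 0.241, edgeR adjusted p = 3.57e-07) and 5.60-fold lower on HFD (-2.49, SE 0.238, edgeR adjusted p = 1.28e-06). These were the largest differences of the 10 genes in either comparison. The LKO values rest on 29 to 75 counts per library, against 236 to 413 in WT, so that the LKO level itself is less precise than the WT level.

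With all libraries in the fit, Steap3 and Steap4 were called between genotypes on neither diet. Steap3 (chr1:120190757-120272705, GRCm38) ranged from 22.7 to 33.7 CPM over the 16 libraries, with log2 fold changes of -0.11 on chow (95% interval -0.35 to 0.13, edgeR adjusted p = 0.548) and 0.03 on HFD (-0.21 to 0.27, edgeR adjusted p = 0.895). Steap4 (chr5:7960457-7982213, GRCm38) had 119.5, 181.2, 121.6 and 105.8 CPM in WT and 116.7, 134.7, 88.9 and 86.6 CPM in LKO on chow, with a log2 fold change of -0.31 (-0.70 to 0.08, edgeR adjusted p = 0.252). On HFD it had 129.4, 137.1, 137.6 and 131.5 CPM in WT and 107, 127, 174 and 177 CPM in LKO, with a log2 fold change of 0.13 (-0.26 to 0.52, edgeR adjusted p = 0.704). Of the counts of Steap2, Steap3 and Steap4 together, Steap2 held 8.89% ± 2.42 in WT and 1.72% ± 0.531 in LKO on chow, and 7.57% ± 1.16 and 1.43% ± 0.739 on HFD (SD, n = 4 each).

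Ferroportin, the product of Slc40a1, is the only known iron exporter of mammals and is abundant in Kupffer cells, the macrophages of the liver that recover iron from old red cells. Slc40a1 (chr1:45908068-45926523, GRCm38) had 186.6, 200.9, 173.8 and 169.5 CPM in WT and 190, 187, 82.8 and 124 CPM in LKO on chow. LKO libraries 1 and 2 were at WT levels and libraries 3 and 4 were below every WT library. On HFD it had 280, 135, 190 and 221 CPM in WT and 181, 220, 145 and 220 CPM in LKO. The log2 fold changes were -0.32 on chow (95% interval -0.84 to 0.19, edgeR adjusted p = 0.376) and -0.11 on HFD (-0.62 to 0.41, edgeR adjusted p = 0.817). The chow value turned on the libraries that stood apart: leaving out LKO chow libraries 3 and 4 gave 0.05, and leaving out libraries 1 and 2 gave -0.82, which was called (edgeR adjusted p = 0.0249). Steap4 was also called on chow without libraries 1 and 2, at -0.59 (edgeR adjusted p = 0.0448).

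Markers of Kupffer cells moved with these values. The summed level of 9 Kupffer cell markers without Slc40a1, among them Clec4f, Timd4 and Vsig4, was 458 and 416 CPM in LKO chow libraries 1 and 2 but 127 and 249 CPM in libraries 3 and 4. In the other groups it ranged from 203 to 474 CPM (WT on chow), 289 to 455 CPM (WT on HFD) and 349 to 556 CPM (LKO on HFD). Across the 16 libraries the correlation of Slc40a1 with this sum was 0.76, and 0.82 after the group means were removed, and its correlation with the sum of 11 sinusoidal endothelial markers was 0.70 and 0.83. Red blood cell markers went the other way, at 339 and 470 CPM in LKO chow libraries 1 and 2 and 1583 and 883 CPM in libraries 3 and 4, and their correlation with Slc40a1 was -0.68, and -0.77 within groups. For the stellate cell markers it was 0.58 and 0.63. Steap4 had a correlation of 0.75 with the sum of 14 macrophage and monocyte markers, and 0.78 within groups. These correlations describe 16 points that share the libraries' cell make-up and scaling. Fewer cells of a type and less RNA per cell cannot be told apart in whole liver, and the part of these markers in the levels of Slc40a1 and Steap4 was not tested. For the 4 called genes the correlation with the Kupffer cell sum ran from -0.33 (Hamp2) to -0.13 (Steap2 and Tfr2). With the sum of 11 B, T and NK cell markers it was 0.42 for Hamp2, 0.55 for Steap2, 0.64 for Trf and 0.68 for Tfr2, and with that of 6 bile duct markers between 0.47 and 0.62. Within groups these were between -0.22 and 0.24, with exceptions for Hamp2. It had -0.62 with the B, T and NK sum and -0.29 with the Kupffer cell sum. Trf had 0.64 with the hepatocyte sum within groups. The part of these markers in the levels of the 4 genes was not tested.

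**Figure D3:**
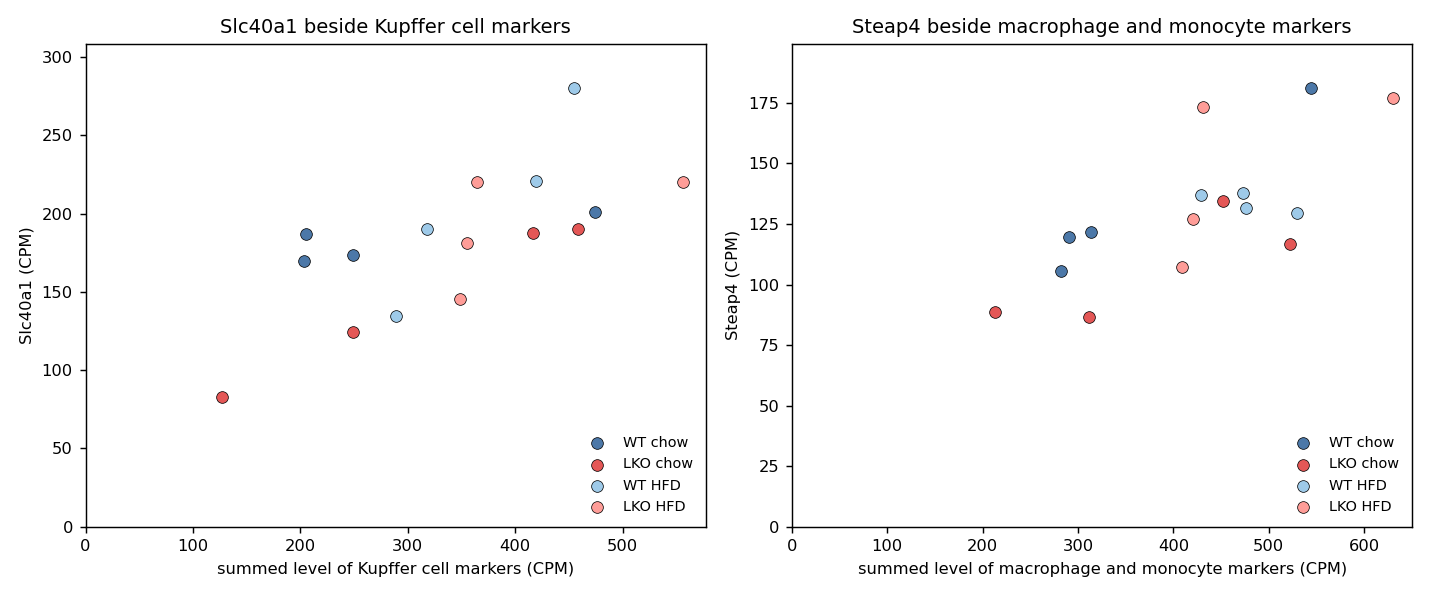
Each point is a library, coloured by group: left, Slc40a1 against the summed level of 9 Kupffer cell markers; right, Steap4 against that of 14 macrophage and monocyte markers, all in CPM from 0. LKO chow libraries 3 and 4 are the points with the lowest Slc40a1 (82.8 and 124 CPM) and Steap4 (88.9 and 86.6 CPM).

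Besides the 4 hepatocyte markers lower on chow, at most 3 genes of any marker list were called in 1 direction. Between genotypes edgeR called 24.7% of all genes on chow and 17.9% on HFD. Of the hepatocyte markers 0 of 10 were higher and 4 lower in LKO on chow, and 1 higher and 3 lower on HFD, while their summed level was 114400 ± 14270 CPM in WT and 124700 ± 4549 CPM in LKO on chow, and 74210 ± 2405 and 95480 ± 6378 CPM on HFD (SD, n = 4 each). The sum was thus higher in LKO on HFD with no overlap, while the median log2 fold change of the 10 markers was -0.19 there and -0.38 on chow. The part of hepatocyte markers in the genotype differences of the 10 genes was not tested. Of the Kupffer cell markers 1 of 10 was higher in LKO on each diet, and of the macrophage and monocyte markers 2 of 14 were higher on chow. Red blood cell markers, 6 tested, summed to 339 to 1583 CPM in LKO and 631 to 1349 CPM in WT on chow, and 1 of them, Alas2, was higher in LKO on each diet. Of the B, T and NK cell markers 1 of 11 was lower in LKO on chow. Of 11 endothelial, 10 stellate, 6 bile duct and 3 neutrophil markers edgeR called 0 between genotypes on either diet, where 0, 2, 1 and 0 had an unadjusted p below 0.05 on chow and 0, 0, 3 and 0 on HFD. DESeq2 called 1 bile duct marker lower on chow and 2 on HFD, and limma voom 1 stellate and 3 bile duct markers lower on HFD.

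Levels were compared between genes as CPM per kilobase of the longest coding transcript. Trf was the highest at 5524 (mean over 16 libraries), followed by Hamp at 1505, Fth1 at 872, Hamp2 at 633, Tfr2 at 112, Slc40a1 at 53.9, Steap4 at 41.1, Steap3 at 5.33, Tfrc at 3.68 and Steap2 at 0.79. Trf exceeded Hamp and Hamp2 exceeded Tfr2 in all 16 libraries. Neighbours that did not keep their order in every library were Hamp and Fth1, with Hamp above in 15, Fth1 and Hamp2, with Fth1 above in 11, Slc40a1 and Steap4, with Slc40a1 above in 13, and Steap3 and Tfrc, with Steap3 above in 15. With the length of all annotated exons in place of the longest transcript, Fth1 and Hamp2 changed places, as did Slc40a1 and Steap4. On this scale Hamp2 went from 1236 ± 413 in WT to 355 ± 162 in LKO on chow, from above to below the level of Fth1 (798 ± 80.5 and 883 ± 76.8).

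With the high-fat diet no member of the 10 was called in either genotype by edgeR. In WT 2.04% of all genes were called on HFD against chow, and in LKO 2.22%. Every HFD library was below every chow library of the same genotype in Hamp: the WT genotype had at most 548 CPM on HFD and at least 594 on chow, and LKO at most 602 on HFD and at least 610 on chow. The log2 fold changes of Hamp were -0.69 in WT (SE 0.271, 95% interval -1.27 to -0.11, edgeR adjusted p = 0.219) and -0.91 in LKO (SE 0.272, -1.48 to -0.33, edgeR adjusted p = 0.0954). DESeq2 called Hamp in LKO (-0.90, adjusted p = 0.0156), as did limma voom with quality weights (-0.97, adjusted p = 0.0287), and an edgeR fit of the WT groups alone called it in WT (-0.69, adjusted p = 0.0484). The summed hepatocyte markers were also lower on HFD with no overlap, in WT at most 75800 CPM on HFD and at least 98600 on chow, and in LKO at most 102900 and at least 120000. Across the 16 libraries Hamp had a correlation of 0.41 with this sum, and -0.59 within groups, and the part of the sum in the diet values of the 10 genes was not tested.

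Hamp2 had log2 fold changes of -0.77 in WT and -0.71 in LKO with overlapping groups (edgeR adjusted p = 0.297 and 0.301), and the 2 hepcidin genes added up had -0.72 and -0.87 (edgeR adjusted p = 0.134 and 0.0674). In WT livers Tfr2 was -0.28 (SE 0.0829, edgeR adjusted p = 0.0902) and Trf -0.32 (SE 0.117, edgeR adjusted p = 0.181), both with no overlap, though the gap for Trf was only that between 16160 and 16200 CPM. Groups of 3 of the 10 genes did not overlap in WT and of 1 in LKO, against 9.51% and 10.2% of all genes. In LKO livers Tfr2 (0.00) and Trf (-0.05) were close to their chow level, with 95% intervals of -0.17 to 0.18 and -0.30 to 0.19. At an unadjusted p below 0.05, 4 genes would pass in WT (Hamp, Hamp2, Tfr2 and Trf) and 2 in LKO (Steap4 and Hamp). Of all genes 15.4% would pass in WT and 17.6% in LKO. DESeq2 called 1 gene in each genotype and limma voom 1 in WT and 2 in LKO. The call in WT was Tfr2 by both (-0.29 each, adjusted p = 0.00836 and 0.0437), and the second limma voom call in LKO was Slc40a1 (0.73, adjusted p = 0.0338).

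In LKO livers the diet values of Steap4 (0.45, edgeR adjusted p = 0.207) and Slc40a1 (0.39, edgeR adjusted p = 0.431) depended on the chow libraries. Without LKO chow libraries 1 and 2, Steap4 (0.74), Hamp (-1.13) and Slc40a1 (0.89) were all called (edgeR adjusted p = 0.029, 0.035 and 0.0304). The summed Kupffer cell markers of the chow libraries that remained were the low ones, 127 and 249 CPM. Steap2, Steap3, Tfrc and Fth1 had log2 fold changes between -0.16 and 0.22 with diet in either genotype.

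**Figure D4:**
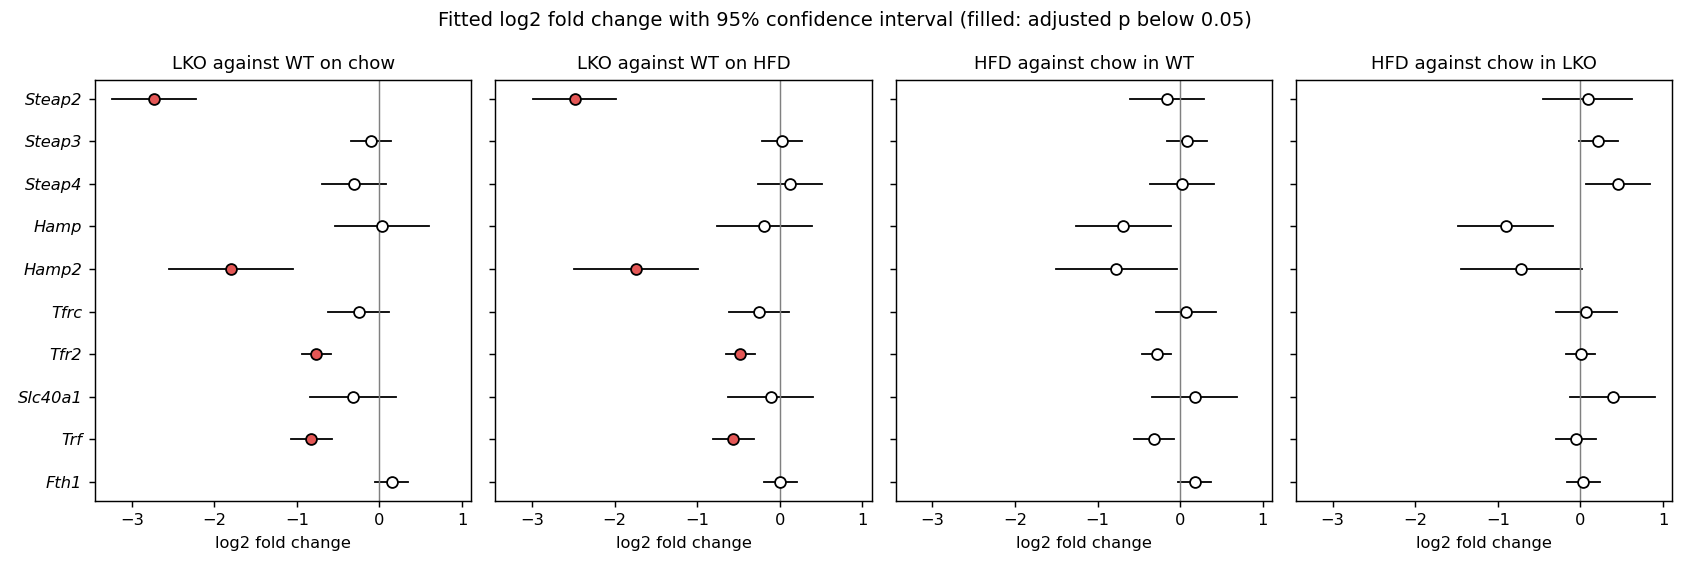
Fitted log2 fold change (horizontal axis) of the 10 genes with its 95% confidence interval (lines) in the 4 comparisons; filled points had an edgeR adjusted p below 0.05. Steap2, Hamp2, Tfr2 and Trf are filled in both genotype panels, and no point is filled in the diet panels, where Hamp lies at -0.69 and -0.91.

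Whether the genotype effect differed between diets was tested with the interaction term, which called 0 of the 10 genes and 0.0208% of all genes by edgeR. DESeq2 and limma voom also called 0 of the 10, and 1, Tfr2, had an unadjusted p below 0.05 by edgeR, as did 8.75% of all genes. Each group enters a genotype and a diet comparison, and all comparisons share a common estimate of the spread. The values on the 2 diets and in the 2 genotypes are therefore given side by side and not as separate evidence.

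The other genes of iron and copper handling were taken from 7 lists by role. Their chow results are not given without the LKO chow libraries that stood apart, so how far they rest on those libraries is not shown. Of 16 tested genes for metalloreductases and copper, 3 were lower and 0 higher in LKO on each diet. On chow these were Steap2, the copper exporter Atp7b (58.1 ± 3.16 CPM in WT and 33.9 ± 3.64 in LKO, log2 fold change -0.78, SE 0.0845) and the copper importer Slc31a1 (238 ± 6.35 and 156 ± 23.2 CPM, -0.61, SE 0.0985). On HFD they were Steap2, Atp7b (49.8 ± 1.96 and 34.8 ± 2.19 CPM, -0.52) and Commd1 (-0.36), which helps to sort copper transporters. The median of the list was -0.17 on chow and 0.06 on HFD, beside 0.02 and -0.01 over all genes. Ceruloplasmin (Cp), the copper enzyme that oxidises iron for loading onto transferrin, is not among the named lowest p-values and was looked up after its values were seen: it had 1239 CPM in WT and 1155 in LKO on chow (-0.10, edgeR adjusted p = 0.614), and 1095 and 1175 CPM on HFD (0.10, edgeR adjusted p = 0.641). With HFD edgeR called 0 genes of the list in WT, with 3 at an unadjusted p below 0.05 and 0 called by DESeq2 and limma voom. In LKO it called 1, the ferric reductase gene Frrs1, which rose from 28.7 to 41.7 CPM (0.54, edgeR adjusted p = 0.0142), where DESeq2 and limma voom each called 3 higher.

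Of 19 tested genes for cellular iron uptake and export, 2 were higher and 4 lower in LKO on chow, and 2 higher and 2 lower on HFD. Besides Tfr2 and Trf, the lowest p on chow belonged to Slc39a14, an importer of iron that is not bound to transferrin, at 271 ± 61.2 CPM in WT against 144 ± 17.6 in LKO (-0.91, SE 0.132, edgeR adjusted p = 7.93e-05). On HFD it belonged to Scara5, a ferritin receptor, which rose from 0.454 ± 0.288 to 4.23 ± 2.75 CPM (3.21, SE 0.532, edgeR adjusted p = 0.000405), a very low level in WT. For diet edgeR called 0 genes of this list in either genotype, with 6 in WT and 4 in LKO at an unadjusted p below 0.05, while DESeq2 called 1 in each and limma voom 1 and 3.

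Of 30 tested genes for the control of hepcidin by BMP, SMAD and interleukin 6 signals, 3 were higher and 10 lower in LKO on chow, and 2 higher and 6 lower on HFD, Hamp2 included. Hjv, which encodes the BMP coreceptor hemojuvelin, had 113.6 ± 10.8 CPM in WT and 77.1 ± 10.2 in LKO on chow (log2 fold change -0.56, edgeR adjusted p = 0.00517), and 102.4 ± 14.6 and 63.1 ± 11.4 CPM on HFD (-0.70, edgeR adjusted p = 0.00125). Acvr1, a BMP receptor, fell on chow (-0.48, edgeR adjusted p = 0.00577) and on HFD (-0.53, edgeR adjusted p = 0.00317), and Smad6, a feedback inhibitor of the pathway, fell on HFD (-0.79, edgeR adjusted p = 0.003). The genes that were higher in LKO, named here after their values were seen, were Id2, a BMP target (0.68 on chow and 0.57 on HFD, edgeR adjusted p = 0.0118 and 0.0382), the SMAD gene Smad9 (1.06 and 1.08, edgeR adjusted p = 0.0187 and 0.0202) and, on chow, the transcription factor Atoh8, itself a BMP target (0.56, edgeR adjusted p = 0.0169). On HFD Atoh8 was -0.36 (edgeR adjusted p = 0.146), and its interaction was not called (edgeR adjusted p = 0.357). In LKO livers Atoh8 fell with HFD from 31.8 ± 5.97 to 13.15 ± 1.285 CPM (log2 fold change -1.27, SE 0.164, edgeR adjusted p = 0.00105), and was the only gene of the list that edgeR called for diet, where DESeq2 called 5 lower.

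Id1, another BMP target used here as a companion of Hamp, was not called: it had 10.9 ± 5.94 CPM in WT and 23.7 ± 9.54 in LKO on chow (1.11, edgeR adjusted p = 0.0519) and 6.45 ± 1.80 and 8.80 ± 3.19 CPM on HFD (0.45, edgeR adjusted p = 0.504). The log2 ratio of Hamp to Id1 differed between genotypes by -1.22 on chow and -0.71 on HFD (exact permutation p = 0.0857 and 0.114, Benjamini-Hochberg adjusted 0.342 each).

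Of 11 tested genes for iron storage and iron regulatory proteins, 3 were lower and 0 higher in LKO on chow, and 0 were called on HFD by edgeR, where 2, Pcbp2 and Pcbp1, had an unadjusted p below 0.05. DESeq2 called 1 and limma voom 2 lower on HFD. Both RNA-binding regulators of Tfrc and ferritin were among the 3 on chow: Aco1 had 264.4 ± 10.7 CPM in WT and 201.4 ± 12.8 in LKO (log2 fold change -0.39, edgeR adjusted p = 0.00144), and Ireb2 had 109.6 ± 24.4 and 72.0 ± 17.0 CPM (-0.61, edgeR adjusted p = 0.0113). The other was Pcbp2, which delivers iron to ferritin (-0.37, edgeR adjusted p = 0.00202). On HFD Aco1 had 253 and 239 CPM and Ireb2 106.6 and 100.2 CPM in WT and LKO. The interaction called 0 genes of this list by edgeR, DESeq2 and limma voom, with 3 at an unadjusted p below 0.05, so a difference between the diets was not shown.

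Of 24 genes for haem synthesis, transport and breakdown, 2 were higher and 3 lower in LKO on chow, and 1 higher and 2 lower on HFD. Over all genes tested 24.7% were called on chow and 17.9% on HFD. The biliverdin reductase Blvrb rose on chow from 70.2 ± 12.8 to 121.4 ± 21.2 CPM (log2 fold change 0.79, edgeR adjusted p = 0.000719), and Alas2, the first enzyme of haem synthesis in red cell precursors, rose on chow (0.75) and HFD (0.63, edgeR adjusted p = 0.0047 and 0.0169). Fam210b, a mitochondrial protein of haem synthesis, fell on chow (-0.84) and HFD (-0.69, edgeR adjusted p = 0.00794 and 0.032). Of 22 genes for iron-sulphur clusters, 0 were called on chow by edgeR, with 4 at an unadjusted p below 0.05, and DESeq2 and limma voom each called 2 lower. The lowest p on chow belonged to Hspa9 (-0.24, unadjusted p = 0.0193), a chaperone of cluster assembly.

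Of 20 acute phase proteins, which share the interleukin 6 pathway with hepcidin, 1 was higher and 9 lower in LKO on chow, and 2 were higher and 2 lower on HFD. Lbp, which binds bacterial lipopolysaccharide, fell on chow from 122.5 ± 31.6 to 50.9 ± 7.70 CPM (log2 fold change -1.27, edgeR adjusted p = 1.38e-05) and on HFD from 96.2 ± 10.2 to 50.9 ± 4.46 CPM (-0.92, edgeR adjusted p = 0.000394). Orm1 and Apcs were the next on chow (-1.10 and -0.59), while Itih3 (1.11) and Serpina3n (0.94) led on HFD. The list's median was -0.40 on chow and 0.01 on HFD. The interaction called 0 of its genes by edgeR, with 10 at an unadjusted p below 0.05, and DESeq2 and limma voom each called 1. With HFD 1 gene of it was higher and 4 lower in WT, and 1 was higher in LKO, Orm2 (1.87, edgeR adjusted p = 0.00735), where DESeq2 and limma voom each called 5 higher and 8 had an unadjusted p below 0.05.

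**Figure D5:**
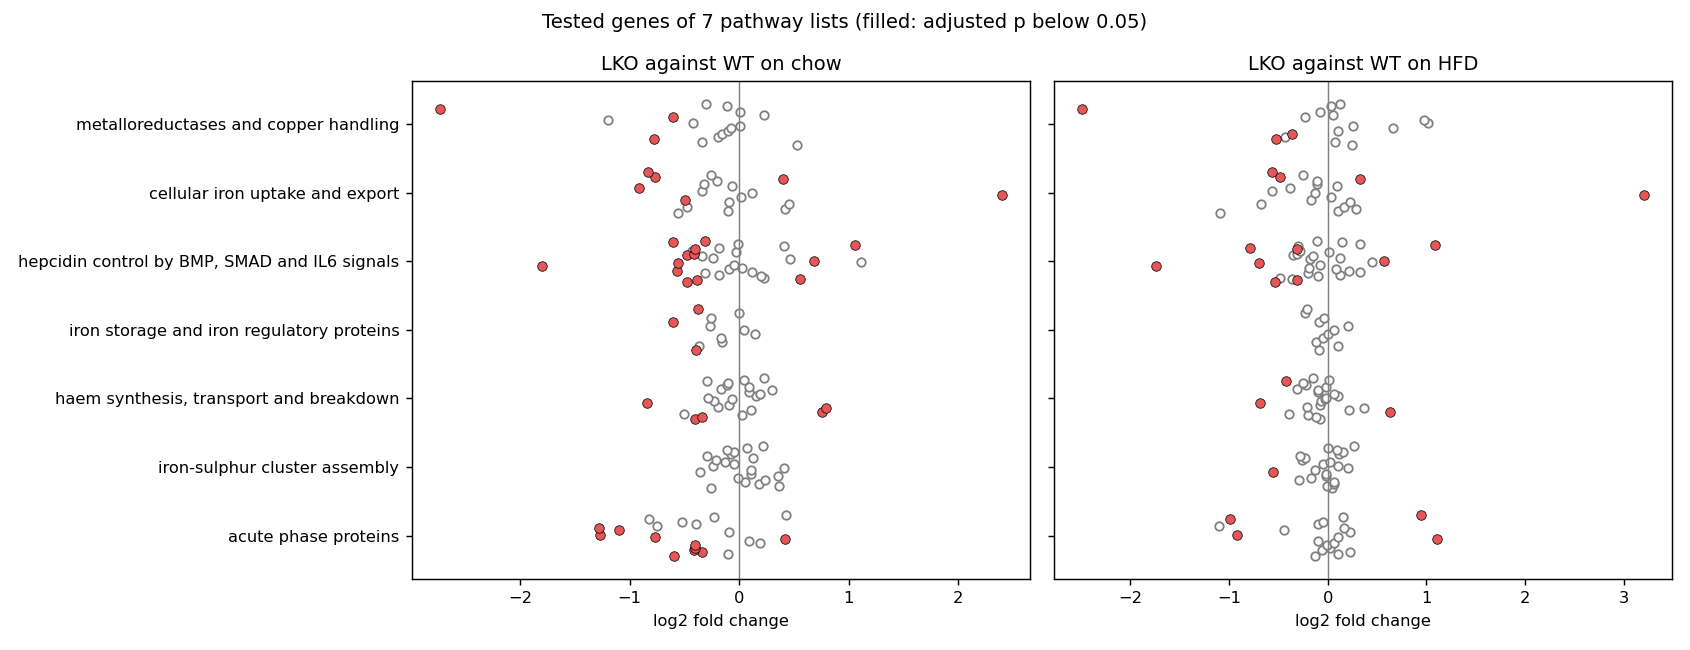
Log2 fold change of LKO against WT (horizontal axis) for each tested gene of 7 lists, on chow (left) and HFD (right); filled points had an edgeR adjusted p below 0.05. The lowest point in both panels is Steap2 (-2.73 and -2.49), and on chow 9 of 20 acute phase genes are filled to the left of 0.

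The genes whose level was most like that of a called gene were sought among 12742 tested genes with a mean of at least 1 CPM, by the Pearson correlation of log2 CPM over the 16 libraries. For Steap2 they were Smarcc2 (0.949), Dcaf8 (0.947) and Arglu1 itself (0.946). For Hamp2 they were Hgfac (0.95), Qdpr (0.932) and Vegfa (0.918). For Trf they were Stra6l (0.952), Dnajc25 (0.951) and Cct4 (0.949), and for Tfr2 Cyp2c69 (0.96), Lbp (0.958) and Smarcc2 (0.956). These 16 points are 4 groups of 4, and the group differences carry most of the likeness for Steap2: once the group means were removed its values were 0.30 with Smarcc2, -0.35 with Dcaf8 and -0.32 with Arglu1. Within groups Hamp2 had 0.72 with Hgfac, 0.88 with Qdpr and 0.555 with Vegfa. Trf had 0.559 with Stra6l, 0.772 with Dnajc25 and 0.717 with Cct4. Tfr2 had 0.662 with Cyp2c69, 0.643 with Lbp and 0.556 with Smarcc2. Among the 10 genes themselves, the within-group correlation of Hamp with Hamp2 was 0.11 and that of Tfr2 with Trf was 0.01.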

How the data were processed

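Liver poly(A) RNA (NEBNext Ultra II kit, paired 150-base reads, 20 M planned, per the labels) was quantified in 16 libraries. The authors deposited expected counts per gene symbol, not normalised, of which 51.1% were whole numbers (tolerance 1e-06). The submitters' processing notes name mm10, Bowtie2 and DESeq2 without roles, and the counting tool, annotation and strand setting are not given in the sources used here. A second deposited table holds the same estimated counts for all 10 genes once its chow columns are moved up by 1 row.

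Counts were rounded and fitted with edgeR 4.0.16 in R 4.3.3 (TMM, filterByExpr, robust quasi-likelihood, 1 mean per group, all 16 libraries, Benjamini-Hochberg adjustment over 14434 genes). The fit was tested on simulated data. The analysed genes and the lists were chosen with earlier results of these data known. All 10 genes are reported, plus at most 3 genes with the lowest p per list and comparison. For the likeness search, 3 genes are named for each of 4 called genes. Correlations use log2 CPM (prior count 2), and ratios add 0.5 to each count. Deviations from the group means of same-numbered libraries had a median correlation of -0.018 (-0.278 to 0.318, 5 of 24 above 0.1), and pairing was not tested. Alternatives were DESeq2 1.42.0, limma 3.58.1 voom, other scalings and filters, a replicate block, and leaving out libraries. Coordinates come from GENCODE M21. A result for 1 gene of the iron-sulphur list is not reported here.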

Additional observations from a re-analysis of the deposited data

How the results depend on the processing

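For Steap2, Hamp2, Tfr2 and Trf the direction and the call between genotypes held on both diets under DESeq2, limma voom, 2 other scalings, an unfiltered table, a minimum mean count of 50, a replicate block, fits of only the groups compared, and without each library or LKO chow pair. The cause of the changes below was not tested.

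Counts over all genes changed as follows. Between genotypes, 2373 were called on chow without LKO chow libraries 3 and 4, and 2152 in the fit of the chow groups alone, against 3565, and 4519 on HFD by limma voom, against 2583. With diet in WT the count of 294 became 706 by DESeq2, 485 by limma voom, 502 without LKO chow libraries 3 and 4, 618 without libraries 1 and 2, and 155 to 359 without 1 library. With diet in LKO the count of 320 became 767, 2053, 179 and 2768 in the same order, 188 in the fit of the groups alone and 111 to 656 without 1 library. Of the 10 genes, 1 was called in WT by DESeq2, limma voom and the fit of the groups alone, and in LKO 1 by DESeq2, 2 by limma voom and 3 without LKO chow libraries 1 and 2. For the interaction the count of 3 became 46 by DESeq2, 16 by limma voom, 1264 without LKO chow libraries 1 and 2, 0 at a mean count of at least 50 and 0 to 9 without 1 library. The replicate block also gave 0, and it changed no call of the 10 genes. By the labels, same-numbered libraries share only a number.

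Other sign changes were among log2 fold changes that were not called. On chow, Hamp was -0.003 with the block, -0.24 without LKO chow libraries 3 and 4, -0.475 with Hamp2 added and -0.236 to 0.134 without 1 library, and Slc40a1 was 0.047 without LKO chow libraries 3 and 4. On HFD, Fth1 was -0.001 by DESeq2 and -0.013 by upper-quartile scaling. Without 1 library the ranges on HFD were -0.037 to 0.119 for Steap3, -0.409 to 0.037 for Hamp, -0.267 to 0.075 for Slc40a1 and -0.029 to 0.043 for Fth1. With diet in WT they were -0.008 to 0.177 for Steap3, -0.073 to 0.202 for Steap4, -0.05 to 0.18 for Tfrc and -0.006 to 0.335 for Slc40a1.

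With diet in LKO the ranges were -0.089 to 0.313 for Steap2, -0.055 to 0.137 for Tfrc, -0.04 to 0.035 for Tfr2, -0.135 to 0.003 for Trf and -0.011 to 0.073 for Fth1. There Tfr2 was -0.002 by limma voom, -0.035 by upper-quartile scaling, -0.01 at a mean count of at least 50, -0.004 without LKO chow libraries 3 and 4 and -0.005 in the fit of the groups alone. Fth1 was -0.017 by limma voom, -0.009 by upper-quartile scaling and -0.065 without LKO chow libraries 1 and 2, where Trf was 0.106, and Tfrc was -0.013 without libraries 3 and 4.

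In the interaction the ranges were -0.438 to 0.048 for Hamp, -0.199 to 0.248 for Hamp2 and -0.126 to 0.11 for Tfrc. Tfrc was -0.02 by limma voom, -0.059 by upper-quartile scaling, -0.013 at a mean count of at least 50, -0.022 with the block and -0.084 without LKO chow libraries 3 and 4, where Hamp was 0.051 and Slc40a1 -0.155. Hamp2 was -0.017 by upper-quartile scaling and -0.087 without LKO chow libraries 1 and 2. Among the diet ratios, the range without 1 library was -0.321 to 0.145 for Hamp2 to Hamp, -0.241 to 0.064 for Tfrc to Fth1 and -0.303 to 0.196 for Hamp to Id1 in WT, and -0.114 to 0.12 for Tfrc to Fth1 in LKO. Depth limits the level of Steap2 in LKO, which rests on 29 to 75 counts.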

Other observations

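Steap1, the fourth gene of the Steap family, is outside the counts table and was read from the second deposited table after its chow columns were moved. It had between 0 and 8 counts per library, with 0 counts in WT chow libraries 2 and 3 and in LKO HFD library 2. At these counts no comparison between groups was made.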
